A study of Homo sapiens with 12 samples.

Results

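The genes described here encode feedback inhibitors of receptor tyrosine kinase and RAS-ERK signalling, namely the Sprouty genes SPRY1, SPRY2 and SPRY4, the Sprouty-related genes SPRED1 and SPRED2, ERRFI1 (MIG6) and PHLDA1. They were taken as every probe set whose platform annotation names 1 of these 7 genes and no other, which gave 17 of 54675 probe sets and 7 of the 19775 genes with a probe set of their own. All 7 genes and 16 of the 17 probe sets reached a mean of 6 on the log2 scale in 1 group or more and were tested. SPRY1 did so only through Hkh-2, on both of its probe sets, so its differences from Hkh-2 are given as a description and lend no support to the counts below. RNA was measured on Affymetrix GeneChip arrays, 3 per group, in 4 groups. HCT116 control cells, from a human colorectal cancer line that carries an oncogenic RAS allele, were collected on day 3 with 25 ng/ml doxycycline or with vehicle. Hke3 and Hkh-2 are isogenic lines derived from HCT116 by homologous recombination, are labelled wild type for that allele, and were grown without treatment. All cells were grown in DMEM with serum and L-glutamine. The labels call the HCT116 cells control cells, and neither they nor the methods settle whether these are the parental cells or carry a control vector. Each recombined line is a single line, so a difference between lines and a difference between genotypes cannot be told apart. Only the HCT116 titles name a day and vehicle or doxycycline. They also hold a further number that they do not explain and that the titles of Hke3 and Hkh-2 lack. How the cells were handled can therefore not be told apart from the line either. The sources used here do not state if the arrays within a group were separate cultures, and the p-values speak only of the spread from array to array, some or all of which may be technical.

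Growth factor receptors activate RAS, and RAS activates the RAF, MEK and ERK kinases. ERK in turn raises the transcription of genes whose products restrain the pathway, so that the RNA of these inhibitors is often read as a record of ERK output. Sprouty proteins act between the receptor and RAF, SPRED proteins bring the RAS inactivator neurofibromin to the membrane, and MIG6, the product of ERRFI1, binds the kinase domain of EGFR and its relatives and blocks it. PHLDA1 encodes a pleckstrin homology-like domain protein whose RNA responds to growth factor signals and which marks stem cells of the human intestine. In the colon, receptor and RAS-ERK signals drive growth of the epithelium, and oncogenic RAS alleles are frequent in its tumours.

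The deposited values are on the log2 scale and come from RMA, a method that subtracts background, brings the arrays to a common distribution and summarises each probe set in 1 value, so a difference of 1 is a change by a factor of 2. Group means below 6 are called near background here. Where a gene had several probe sets, the highest by mean level stood for it. Differences were tested by limma in a fit of the 12 arrays with Benjamini-Hochberg adjustment over the 12852 genes that passed the filter, and a gene was called at an adjusted p under 0.05. The probe sets were also tested on their own, over the 27403 probe sets kept. Array medians lay between 5.80 and 5.86. Within the groups, r between arrays was 0.993 to 0.998 over probe sets, which do not count as independent replicates. Vehicle replicate 2 of HCT116 and replicate 3 of Hke3 stood apart within their groups and deviated alike from their group means, with r = 0.683 over genes. The difference between the 5′ and 3′ probe sets of actin, a measure of RNA and labelling quality, ranged within -0.94 to -0.71 with doxycycline and -0.86 to -0.48 with vehicle, and was nearer 0 in Hke3, at -0.57 to -0.23, and Hkh-2, at -0.32 to -0.23. It moved with the comparisons below, and its part in them was not tested. Of the colon epithelium markers, 8 of 8 were at 6 or more in every group, and the 3 leukocyte markers measured were under 6 in every group. The summed log2 values of the 8 epithelial markers spanned 84.63–84.82 per array with doxycycline, 84.73–84.98 with vehicle, 84.65–86.19 in Hke3 and 87.23–87.94 in Hkh-2. Among them CDH1 had the widest range, with means of 11.14 with doxycycline, 11.07 with vehicle, 11.90 in Hke3 and 12.24 in Hkh-2. Of 5 fibroblast markers, COL1A1 with group means of 8.19 to 8.43 and DCN with 6.01 to 6.21 were at 6 or more in every group, while COL1A2 and LUM were under 6. COL3A1, the fifth, differed between the groups, with means of 4.45 with doxycycline, 4.49 with vehicle, 4.45 in Hke3 and 6.73 in Hkh-2. The summed log2 values of the 5 spanned 27.0–28.2 per array with doxycycline, 27.1–27.4 with vehicle, 26.9–27.9 in Hke3 and 29.0–29.9 in Hkh-2. Of 3 endothelial markers, PECAM1 was at 6 or more in every group and CDH5 under 6. VWF, the other one, had means of 6.33 with doxycycline, 6.35 with vehicle, 5.34 in Hke3 and 5.32 in Hkh-2, and the summed values of the 3 spanned 17.2–17.3 with doxycycline, 16.9–17.3 with vehicle, 15.7–16.0 in Hke3 and 15.4–16.4 in Hkh-2. The part of these markers in the results was not tested. Lower RNA of a gene in every cell and fewer cells that express it cannot be told apart in such bulk samples.

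The genes lie on 7 chromosomes of the GRCh38.p14 assembly, SPRY1 at chr4:123396795-123403760, SPRY2 at chr13:80335976-80341126, SPRY4 at chr5:142310430-142325021, SPRED1 at chr15:38252836-38357249, SPRED2 at chr2:65307175-65432599, ERRFI1 at chr1:8011727-8026309 and PHLDA1 at chr12:76025447-76031776. The 250 bases before the first RefSeq start site of the 5 genes that were called against both recombined lines are shown 5′ to 3′ on the strand of the gene, with every GGAA on either strand (GGAA or TTCC), the core of sites bound by ETS factors, in capitals. ETS factors carry much of the transcriptional response to ERK.
SPRY4: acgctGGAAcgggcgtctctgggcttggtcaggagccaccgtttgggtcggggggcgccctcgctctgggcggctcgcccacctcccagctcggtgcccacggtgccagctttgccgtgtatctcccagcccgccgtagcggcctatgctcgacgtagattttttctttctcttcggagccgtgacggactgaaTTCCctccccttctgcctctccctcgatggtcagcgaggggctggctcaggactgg
SPRED2: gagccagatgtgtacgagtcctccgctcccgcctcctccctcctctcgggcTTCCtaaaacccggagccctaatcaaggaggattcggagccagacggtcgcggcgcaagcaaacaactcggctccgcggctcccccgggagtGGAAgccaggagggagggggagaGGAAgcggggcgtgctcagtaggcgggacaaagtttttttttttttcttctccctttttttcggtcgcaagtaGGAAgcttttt
ERRFI1: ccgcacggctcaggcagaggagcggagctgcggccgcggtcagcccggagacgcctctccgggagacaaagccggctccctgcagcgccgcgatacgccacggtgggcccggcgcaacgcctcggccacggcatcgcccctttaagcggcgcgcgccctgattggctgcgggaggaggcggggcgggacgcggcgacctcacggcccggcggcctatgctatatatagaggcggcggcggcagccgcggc
PHLDA1: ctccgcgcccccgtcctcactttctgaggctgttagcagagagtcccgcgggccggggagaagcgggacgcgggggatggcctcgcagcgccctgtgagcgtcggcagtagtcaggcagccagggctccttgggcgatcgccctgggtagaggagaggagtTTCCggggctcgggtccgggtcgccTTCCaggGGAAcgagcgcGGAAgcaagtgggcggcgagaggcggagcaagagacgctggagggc
SPRY2: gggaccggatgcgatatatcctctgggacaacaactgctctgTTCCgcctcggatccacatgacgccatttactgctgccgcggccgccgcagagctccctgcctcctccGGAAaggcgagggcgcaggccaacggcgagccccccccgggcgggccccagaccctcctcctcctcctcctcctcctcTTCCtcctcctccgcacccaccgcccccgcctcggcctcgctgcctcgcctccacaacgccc
These are chr5:142324248-142324497 for SPRY4, chr2:65432600-65432849 for SPRED2, chr1:8026310-8026559 for ERRFI1, chr12:76031777-76032026 for PHLDA1 and chr13:80341127-80341376 for SPRY2, all on the minus strand of GRCh38.p14 with sequence from RefSeq. The listed start of SPRY4 lies 774 bases inside the outer end of the gene. GGAA was found 2 times in the SPRY4 window, 4 times in that of SPRED2, 0 times in that of ERRFI1, 4 times in that of PHLDA1 and 3 times in that of SPRY2. Of the 35116 promoter windows of this length, 92.7% hold it at least once, with a median of 3 matches, so its presence does not set these genes apart, and ERRFI1 is among the 7.26% of windows without it. The longer ETS site CCGGAAG, found in 8.52% of windows, the AP-1 site TGANTCA, found in 6.57%, the cAMP response element TGACGTCA, found in 1.65%, and the CArG box bound by serum response factor, found in 1.16%, each searched on both strands, were in none of these 5 windows nor in the first windows of SPRY1 and SPRED1. The 7 genes have 11 start windows in all, and a second window of SPRY1, chr4:123398136-123398385, holds CCGGAAG 1 time, the only member window with it. TGACG, the core that the cAMP response element contains, was found in the windows of SPRY2 and SPRY4 and in 21.2% of all windows. These matches describe letters in a window and not bound sites, and the window of SPRY2, the gene that ran opposite to SPRY4 in the comparisons of HCT116 with the recombined lines, holds the same 2 kinds of match as that of SPRY4.

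HCT116 control cells with vehicle were first compared with Hke3, which addresses genes that differ between these lines, of which HCT116 carries the oncogenic allele. SPRY4, ERRFI1, SPRED2 and PHLDA1 were higher in HCT116, SPRY2 and SPRED1 were lower, and SPRY1 was not called, at an adjusted p under 0.05 from limma. Thus 4 of 7 genes were called higher, against 24.6% of all genes tested, and 2 of 7 were called lower, against 23.2%. The median log2 fold change of the 7 genes was 0.55, beside 0.04 over all genes tested. By probe set, 9 of the 16 tested were called higher, against 23.3% of all probe sets tested, and 2 were called lower, against 21.4%, and several of these probe sets share a gene.

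SPRY4, an inhibitor of growth factor-induced RAS-ERK signalling, had 1 probe set, 221489_s_at. Its log2 values were 8.31, 8.06 and 7.86 in the vehicle arrays and 6.42, 6.48 and 6.54 in Hke3. The lowest vehicle array lay 1.32 above the highest Hke3 array. The log2 fold change was 1.60 (SE 0.124, adjusted p = 3.8e-07 by limma), a 3.03-fold difference, and SPRY4 was the only gene of the 7 past 1.5 on the log2 scale, the size threshold of the study, in either comparison with HCT116 when each gene was read on its highest probe set.

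ERRFI1, which encodes the EGFR family inhibitor MIG6, gave log2 values of 13.21, 12.98 and 13.12 with vehicle and 12.29, 12.38 and 12.20 in Hke3. The groups did not overlap. The log2 fold change was 0.81 (SE 0.0789, adjusted p = 3.32e-06), a 1.75-fold difference.

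SPRED2 reached 10.18, 10.19 and 10.01 with vehicle and 9.61, 9.52 and 9.59 in Hke3 on its highest probe set, 212458_at. The log2 fold change was 0.55 (SE 0.0700, adjusted p = 3.25e-05). Another probe set, 212466_at, gave 6.13, 6.61 and 6.18 with vehicle against 5.65, 5.63 and 5.90 in Hke3. Its fitted difference was 0.59, but the Hke3 mean was near background, and the vehicle mean lay 0.31 above 6. The third probe set, 214026_s_at, had group means between 3.57 and 3.81 and was not tested.

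PHLDA1 was read by 6 probe sets. The highest, 217996_at, gave 12.30, 12.32 and 12.18 with vehicle and 11.64, 11.65 and 11.86 in Hke3. The log2 fold change was 0.55 (SE 0.0951, adjusted p = 0.000419). Over the 6 probe sets the log2 fold change lay between 0.54 and 0.96, and 5 of 6 were called higher. The exception was 218000_s_at, with 9.91, 10.71 and 9.58 with vehicle against 9.67, 9.59 and 9.32 in Hke3 and an adjusted p of 0.0531. On it vehicle replicate 2, which stood apart as an array, was the highest of all 12 arrays, and the groups overlapped.

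SPRY2, a Sprouty that binds the ubiquitin ligase CBL, ran the other way. Its log2 values were 6.95, 7.04 and 6.82 with vehicle and 7.32, 7.49 and 7.52 in Hke3, with no overlap. The log2 fold change was -0.50 (SE 0.116, adjusted p = 0.00326), a 1.42-fold lower level in HCT116. SPRED1, the SPRED whose loss causes Legius syndrome in people, gave 9.25, 8.96 and 9.26 with vehicle and 9.45, 9.46 and 9.29 in Hke3 on 226837_at. Its log2 fold change was -0.24 (SE 0.0916, adjusted p = 0.0422). This call rested on few arrays, since without vehicle replicate 2 the fold change was -0.15 with an adjusted p of 0.17, and the other SPRED1 probe sets gave -0.01 and -0.02. SPRY1 had 6.07, 5.91 and 5.78 with vehicle and 5.85, 5.65 and 5.80 in Hke3 on 230212_at, near background in both groups, with a log2 fold change of 0.16 (adjusted p = 0.219).

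**Figure D1:**
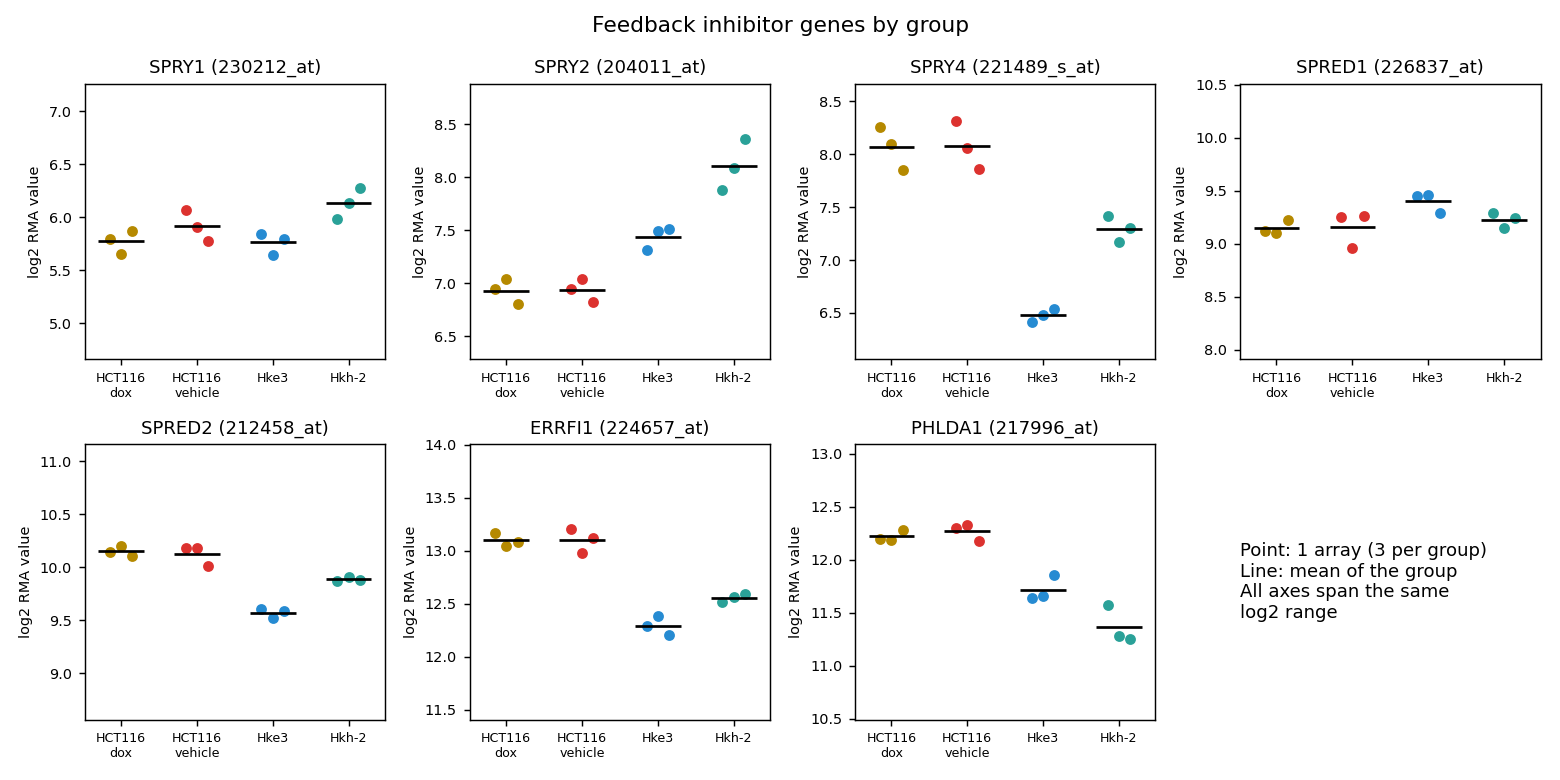
Log2 RMA values of the 7 genes, each on its highest probe set, for HCT116 control doxycycline, HCT116 control vehicle, Hke3 and Hkh-2 from left to right. Each point is 1 of 3 arrays and each line a group mean, and all panels span the same log2 range. SPRY4, SPRED2 and ERRFI1 are lowest in Hke3, PHLDA1 is lowest in Hkh-2, and SPRY2 is lowest in both HCT116 groups and highest in Hkh-2.

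Set against Hkh-2, the other recombined line, HCT116 control vehicle again had higher PHLDA1, SPRY4, ERRFI1 and SPRED2 and lower SPRY2, while SPRY1 and SPRED1 were not called. That is 4 of 7 genes higher, against 14.3% of all genes tested, and 1 of 7 lower, against 21.7%. The median log2 fold change was 0.24, beside -0.02 over all genes tested. Of the 16 probe sets tested, 10 were higher, against 17% of all probe sets tested, and 2 were lower, against 18.5%, 1 of them 212558_at of SPRY1, which passed the filter only through Hkh-2. Both comparisons use the same 3 vehicle arrays and are therefore not independent of each other.

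PHLDA1 had the largest fold change of the genes that were higher. On 217996_at the Hkh-2 arrays gave 11.57, 11.28 and 11.25, all below the vehicle values, and the log2 fold change was 0.90 (SE 0.0951, adjusted p = 8.39e-06). The other 5 probe sets gave larger differences, from 1.24 to 1.94, and 6 of 6 were called higher. On 225842_at the values were 9.61, 9.70 and 10.07 with vehicle and 7.71, 8.04 and 7.81 in Hkh-2, a 3.85-fold difference. On 217999_s_at they were 8.65, 8.78 and 9.11 with vehicle and 6.80, 7.15 and 6.87 in Hkh-2, a 3.74-fold difference. On 217997_at they were 11.97, 11.66 and 11.82 with vehicle and 10.23, 10.06 and 10.08 in Hkh-2. The size of the PHLDA1 difference therefore depended on the probe set, and with the mean of all its probe sets the log2 fold change against Hkh-2 was 1.54 in place of 0.90. The position of the probe sets within the transcript is not given in the sources used here.

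**Figure D2:**
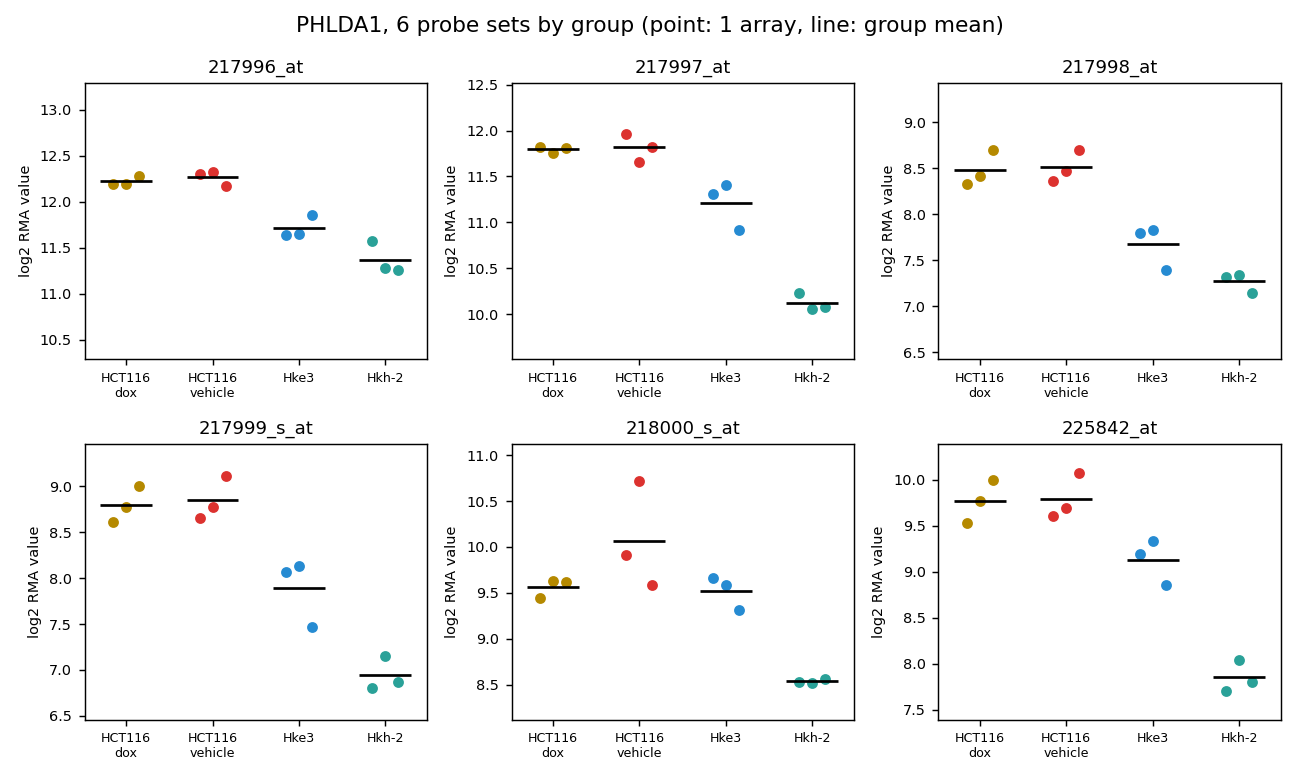
Log2 RMA values of the 6 PHLDA1 probe sets in HCT116 control doxycycline, HCT116 control vehicle, Hke3 and Hkh-2 from left to right, with 1 point per array, a line at each group mean and the same log2 span in every panel. All 6 probe sets are lowest in Hkh-2, and on 218000_s_at the vehicle array at 10.71 stands above the other vehicle arrays.

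SPRY4 gave 7.42, 7.17 and 7.30 in Hkh-2, again below all vehicle arrays, for a log2 fold change of 0.78 (SE 0.124, adjusted p = 0.000265), a 1.72-fold difference. ERRFI1 gave 12.52, 12.56 and 12.59 in Hkh-2. Its log2 fold change was 0.55 (SE 0.0789, adjusted p = 0.000131). SPRED2 gave 9.87, 9.91 and 9.88 in Hkh-2 on 212458_at, for a log2 fold change of 0.24 (SE 0.0700, adjusted p = 0.0164). The SPRED2 call was lost without vehicle replicate 1, where the fold change was 0.21 and the adjusted p 0.0639, and 212466_at gave 0.25 with an adjusted p of 0.117.

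SPRY2 had the largest difference of the genes that were lower in HCT116. It gave 7.88, 8.08 and 8.37 in Hkh-2, and the highest vehicle array lay 0.84 below the lowest of them. The log2 fold change was -1.17 (SE 0.116, adjusted p = 4.56e-06), a 2.25-fold lower level in HCT116. SPRY1 depended on the probe set. On 230212_at Hkh-2 gave 5.99, 6.14 and 6.28, overlapping the vehicle arrays, with a log2 fold change of -0.21 (adjusted p = 0.121). On 212558_at the values were 5.56, 5.26 and 5.59 with vehicle and 6.80, 6.48 and 6.26 in Hkh-2. That probe set was called lower in HCT116 by limma, with a fitted difference of -1.04 (adjusted p = 6.75e-05). The vehicle mean was near background, and the Hkh-2 mean lay 0.52 above 6 on the log2 scale. Hkh-2 was the only group in which SPRY1 reached a mean of 6, on both of its probe sets.

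SPRED1 was not called against Hkh-2 on its highest probe set, at -0.07 (95% confidence interval -0.27 to 0.13, adjusted p = 0.595). Its other probe sets pointed upwards in HCT116. On 244439_at the values were 6.99, 7.19 and 6.98 with vehicle and 6.70, 6.73 and 6.58 in Hkh-2, called higher at 0.38 (adjusted p = 0.0207 over probe sets). On 235074_at the difference was 0.30 with an adjusted p of 0.0692. The 3 SPRED1 probe sets thus disagreed in sign, and no direction is given for the gene.

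**Figure D3:**
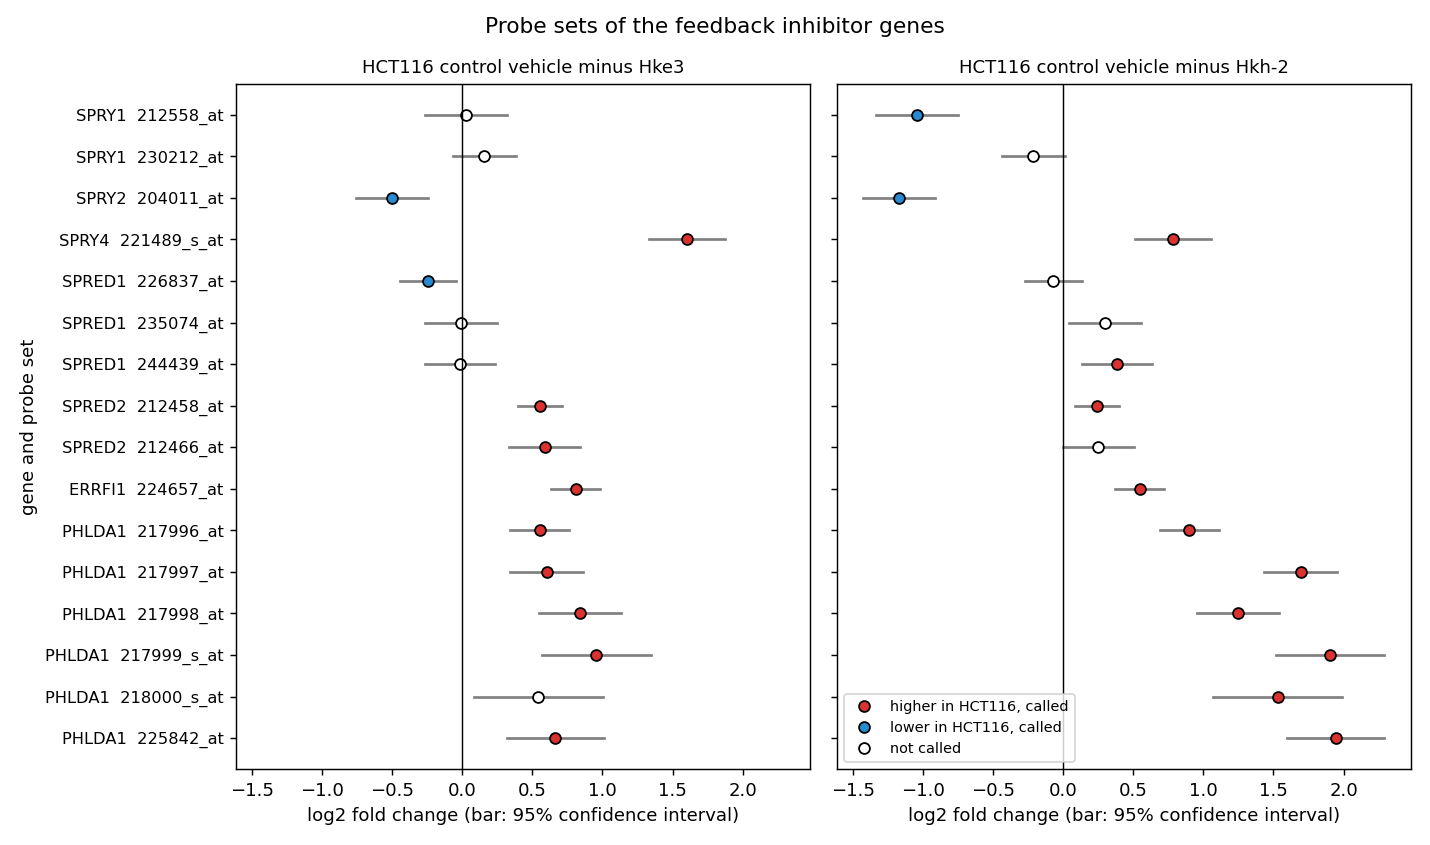
Log2 fold changes of the 16 probe sets tested, for HCT116 control vehicle minus Hke3 on the left and minus Hkh-2 on the right, with 95% confidence intervals from the fit as bars. Filled points were called at an adjusted p under 0.05 over all probe sets, red for higher and blue for lower in HCT116. PHLDA1, ERRFI1, SPRED2 and SPRY4 lie to the right of 0 in both panels and SPRY2 to the left, while the SPRED1 and SPRY1 probe sets are spread on both sides.

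The recombined lines were then compared with each other, Hke3 minus Hkh-2. SPRY4, SPRY2, SPRED2 and ERRFI1 were lower in Hke3 and PHLDA1 was higher, while SPRED1 was not called. SPRY1 was also called lower, but it passed the filter only through Hkh-2, and with values under 6 counted as 6 its difference was -0.14 and not called (adjusted p = 0.149). The fit called 5 of 7 genes lower with SPRY1 and 4 without it, against 23.5% of all genes tested, and 1 of 7 higher, against 16.3%. Of the 16 probe sets tested, 7 were lower, 2 of them of SPRY1, against 18.9% of all probe sets tested, and 7 were higher, against 17.1%. Of the 7 that were higher, 6 read PHLDA1 and the other, 244439_at, read SPRED1.

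SPRY4 differed most, at 6.42, 6.48 and 6.54 in Hke3 and 7.42, 7.17 and 7.30 in Hkh-2. Its log2 fold change was -0.82 (SE 0.124, adjusted p = 0.00021). SPRY2 was also lower in Hke3, by a log2 fold change of -0.67 (SE 0.116, adjusted p = 0.000585), so that these Sprouty genes ran together between the recombined lines and apart against HCT116. SPRED2, at -0.31 (adjusted p = 0.00333), and ERRFI1, at -0.26 (adjusted p = 0.0176), were lower in Hke3 by smaller amounts. PHLDA1 went against them at 0.35 (adjusted p = 0.011) on 217996_at, and its 6 probe sets gave 0.35 to 1.28 and were all called higher. SPRY1 had a Hke3 mean near background on both probe sets, so no size is given for its difference. Its Hkh-2 mean lay 0.13 above 6 on 230212_at, where the fitted value was -0.37, and 0.52 above 6 on 212558_at. SPRED1 was at 0.18 on 226837_at (95% confidence interval -0.02 to 0.37, adjusted p = 0.149). Its other probe sets were also higher in Hke3, without overlap of the arrays. By limma over probe sets, 235074_at was at 0.31 (adjusted p = 0.062) and 244439_at at 0.40 (adjusted p = 0.017), and the latter was called. The ERRFI1 and PHLDA1 calls were lost without Hkh-2 replicate 2, with adjusted p of 0.0534 and 0.0518, and without Hkh-2 replicate 3, with 0.0573 and 0.0513. The SPRY1 call was lost without Hke3 replicate 2 (adjusted p = 0.0534) and without Hkh-2 replicate 3 (adjusted p = 0.0537).

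Read across the groups, the genes fell into different orders. SPRY4, SPRED2 and ERRFI1 had the order HCT116, Hkh-2, Hke3 from high to low, with each step between lines called. Every step of SPRY4 kept its call when any 1 array was left out, all on its 1 probe set. The SPRED2 step between Hke3 and Hkh-2 was lost with the mean of its probe sets (-0.18, adjusted p = 0.0686), its step between HCT116 and Hkh-2 without vehicle replicate 1, and the ERRFI1 step between Hke3 and Hkh-2 without Hkh-2 replicate 2 or 3. SPRY2 had the order Hkh-2, Hke3, HCT116, with each step called also when any 1 array was left out. PHLDA1 had the order HCT116, Hke3, Hkh-2, with each step called, and its step between Hke3 and Hkh-2 on 217996_at was lost without Hkh-2 replicate 2 or 3. SPRED1 was highest in Hke3 on 226837_at, with Hkh-2 next to it and not called different from either Hke3 or HCT116. On 244439_at it was lowest in Hkh-2, called against both Hke3 and HCT116 with vehicle. SPRY1 was above background only in Hkh-2 and has no order among the other groups. Doxycycline and vehicle means were not called different in any gene.

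Doxycycline was compared with vehicle in the HCT116 control cells, which asks whether the inducing agent alone moved these genes. With doxycycline, SPRY4 gave 8.26, 8.10 and 7.85 and SPRY2 gave 6.95, 7.04 and 6.81, each array within 0.06 of the vehicle array of the same number. ERRFI1 gave 13.17, 13.05 and 13.09, PHLDA1 12.19, 12.19 and 12.28 on 217996_at, and SPRED2 10.15, 10.20 and 10.11 on 212458_at, overlapping vehicle in each case. None of the 7 genes was called, against 0% of all genes tested in either direction. Over all genes limma called 0, and 58 were higher and 69 lower at an unadjusted p under 0.05. The log2 fold changes of the 7 genes lay between -0.15 for SPRY1 and 0.02 for SPRED2. For SPRY4 the 95% confidence interval was -0.28 to 0.25, for SPRY2 -0.26 to 0.24 and for ERRFI1 -0.17 to 0.17, so that differences of the size seen against Hke3 lie outside these intervals. The largest difference among the probe sets was on 218000_s_at of PHLDA1, at -0.50, where vehicle replicate 2 stood high. With the doxycycline arrays in place of vehicle, SPRY4 was at 1.59 against Hke3 and 0.77 against Hkh-2, and SPRY2 at -0.51 and -1.18.

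Other genes with ERK-dependent RNA give the surroundings of these inhibitors. Among 14 such genes, HCT116 had 6 higher relative to Hke3, against 24.6% of all genes tested, and 3 lower, against 23.2%. Their median log2 fold change was 0.52, beside 0.04 over all genes tested. The ETS factor gene ETV4 was at 1.40, the ERK phosphatase genes DUSP6 and DUSP4 at 0.99 each, and the ETS factor gene ETV5 at 0.88, all called. IER3, HBEGF and PLAUR were the 3 called lower. Against Hkh-2, 6 were higher, against 14.3% of all genes tested, and 0 lower, against 21.7%. The median was 0.33, beside -0.02 over all genes tested. ETV1 was at 0.96, DUSP4 at 0.86 and the early response gene IER3 at 0.63, all called, and FOSL1 was at 0.59 with an adjusted p of 0.0667. Between Hke3 and Hkh-2, 3 were lower, against 23.5% of all genes tested, and 3 higher, against 16.3%. ETV4 was at -0.87 and the urokinase receptor gene PLAUR at 0.48, both called, IER3 at 1.27, called, and EGR1 at -1.09 with an adjusted p of 0.0613. As with SPRY4, DUSP6 and ETV4 were lowest in Hke3, with Hkh-2 between it and HCT116. Not all of the list had this order. IER3, HBEGF and PLAUR had their highest mean in Hke3, and ETV1 had its lowest in Hkh-2.

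**Figure D4:**
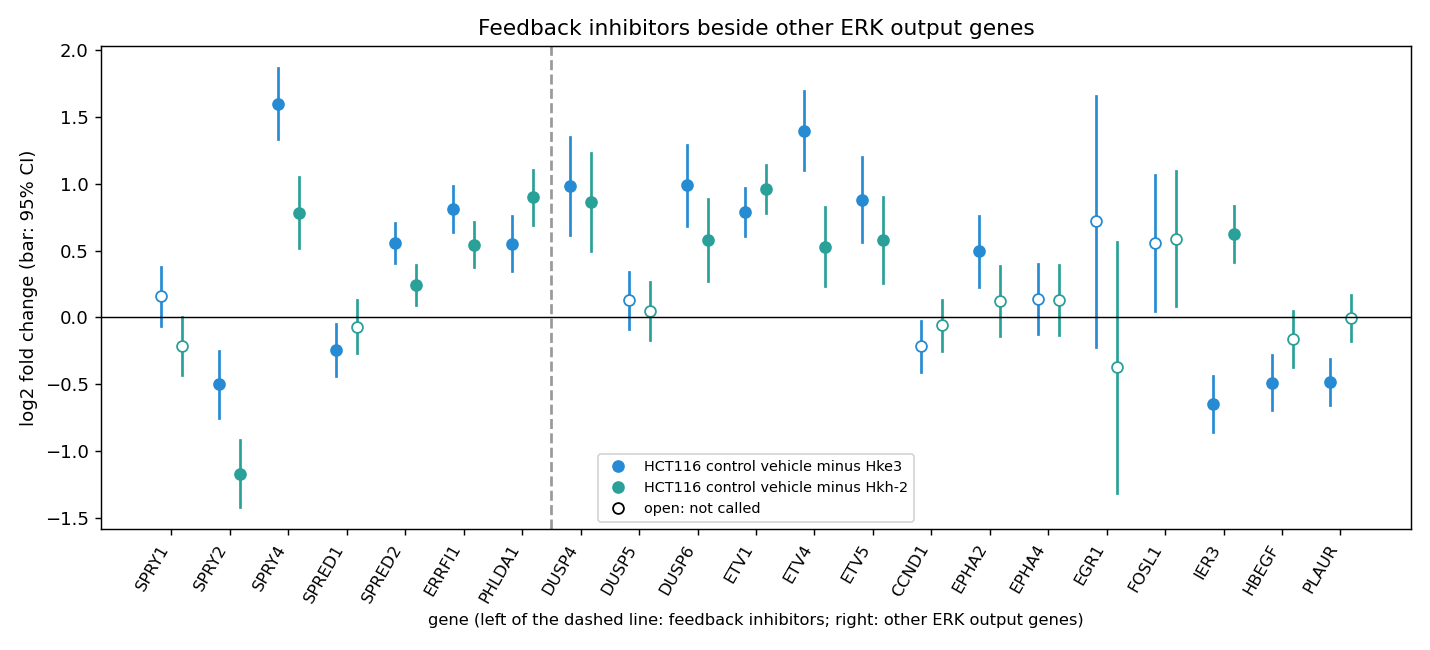
Log2 fold changes of the 7 feedback inhibitor genes, left of the dashed line, and of 14 other ERK output genes, right of it, for HCT116 control vehicle minus Hke3 in blue and minus Hkh-2 in green. Bars are 95% confidence intervals and open points were not called. SPRY4 at 1.60 and ETV4 at 1.40 are the highest points, and SPRY2 at -1.17 is the lowest.

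The inhibitors act through partners, and of 12 partner genes chosen for this, 11 were measured and 10 were tested. In HCT116 against Hke3, 2 were higher, against 24.6% of all genes tested, and 3 lower, against 23.2%. SIAH2, a ubiquitin ligase that targets Sprouty proteins, was at 0.49 and CAV1, a caveolin that binds Sprouty and SPRED proteins, at 0.31. NEDD4, another ubiquitin ligase for SPRY2, was at -0.44 and TESK1, a kinase that binds Sprouty proteins, at -0.39, all called, and the third called lower was PTPN11. Against Hkh-2, 1 was higher, against 14.3% of all genes tested, and 2 lower, against 21.7%. CAV1 gave 13.23 with vehicle and 11.34 in Hkh-2 as group means, for a log2 fold change of 1.88 (SE 0.0852, adjusted p = 2.16e-09), larger than that of any of the 7 inhibitor genes on its highest probe set. TESK1 was at -0.42 and DYRK1A, a kinase that phosphorylates Sprouty proteins, at -0.35, both called, and CBL at -0.20 with an adjusted p of 0.129. Between Hke3 and Hkh-2, 3 were higher, against 16.3% of all genes tested, and 2 lower, against 23.5%. CAV1 was at 1.58, NEDD4 at 0.62, SIAH2 at -0.35 and PTPN11 at 0.26, all called. NF1, the gene of neurofibromin, which SPRED proteins recruit, had a highest group mean of 3.98 and was not tested.

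Of the 4 EGFR family receptors that MIG6 inhibits, ERBB4 was near background and 3 were tested. None was called against Hke3, where 24.6% of all genes tested were called higher and 23.2% lower. Against Hkh-2, 14.3% of all genes tested were called higher and 21.7% lower. There ERBB3 was lower in HCT116 at -0.60 (adjusted p = 1.41e-05) and EGFR was at 0.16 (adjusted p = 0.45). ERBB2 was called lower at -0.42 (adjusted p = 0.0232), although its arrays overlapped. Between Hke3 and Hkh-2, ERBB2 was at -0.69 and ERBB3 at -0.62, both called lower in Hke3. In that comparison 16.3% of all genes tested were called higher and 23.5% lower. Of the 4 closest relatives of the inhibitor genes, SPRY3 was near background. SPRED3 was not called in any comparison, at 0.02 against Hke3 and -0.05 against Hkh-2. PHLDA3, a relative of PHLDA1 that is known as a p53 target, was lower in HCT116 than in Hkh-2 at -0.86 (adjusted p = 0.000283) and lower in Hke3 than in Hkh-2 at -0.64, while PHLDA2 was higher in Hke3 than in Hkh-2 at 0.27.

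The genes whose values over the 12 arrays were most like those of each inhibitor were sought among the genes kept whose group means span at least 1 on the log2 scale, by Pearson's r. The arrays share their groups, so r mostly follows the 4 group means and is given as a description. For SPRY4 they were RHOF (r = 0.981), POLR1H (0.977) and SMC3 (0.974). For ERRFI1 they were EML1 (0.989), FAM210A (0.984) and ABHD10 (0.984), and for SPRED2 SLC38A1 (0.981), BLTP2 (0.981) and SLC45A1 (0.980). PHLDA1 was most like STK39 (0.970), SETD5 (0.969) and ANKRD13C-DT (0.968). SPRY2 was most like DHDH (0.967), GABARAPL1 (0.965) and MYRIP (0.965), the last with group means of 3.91 with doxycycline, 3.70 with vehicle, 5.52 in Hke3 and 7.94 in Hkh-2. SPRED1 was most like PPP1R9A (0.937), RBMS1 (0.926) and ZDHHC2 (0.920). SPRY1, near background in 3 of 4 groups, reached no more than 0.803 with CNNM4, 0.801 with KRTAP1-1 and 0.801 with GNG4.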

How the data were processed

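The authors deposited log2 values per probe set, made with RMA per the submitters' processing notes. Its version, its chip definition and which arrays it normalized jointly are not given in the sources used here. The sample labels gave groups and replicate numbers. Values of the recombined gene are not reported here. The members and gene lists were chosen with earlier results of these data known.

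From the deposited log2 values, 41097 probe sets with a single symbol were named through the platform annotation, 41043 of them by gene ID through RefSeq genes of GRCh38.p14, while 1801 named several genes and 11777 are unnamed here. A gene was its single-symbol probe set with the highest mean, kept at a mean of at least 6 in at least 1 group. limma 3.58.1 (R 4.3.3; lmFit, contrasts, eBayes) was fitted to the 12 arrays as 4 groups, and likewise over probe sets. The study names no test for these arrays. The genes named were all 7 members, up to 4 of each list by the largest fold change in a comparison, and the 3 genes most like each member. IER3, HBEGF, PLAUR and PTPN11 against Hke3 were named after their values were seen. So were the other ERK output genes whose order across the groups is given. The main fit did not use replicate numbers as pairs. Deviations of vehicle and doxycycline arrays with the same number had r = 0.228, 0.212 and 0.453 over genes. In the other pairs of groups such r ran from -0.58, for vehicle and Hke3, to 0.422, for vehicle and Hkh-2. Whether the numbers pair any arrays was not settled. The procedure was tested on simulated data. Precision is limited by the number of arrays. Alternatives were other summaries of probe sets, filters, normalizations, priors and control arrays, the replicate block, the size threshold, the compared groups alone, values under 6 counted as 6, and leaving out arrays.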

Additional observations from a re-analysis of the deposited data

Results flagged for a closer look

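The effect of HCT116 against the recombined lines was called different between Hke3 and Hkh-2 for 6 of the 7 genes. This was tested as Hke3 minus Hkh-2 in the limma fit. Both effects share the vehicle arrays, which drop out of this difference. Over all genes tested, 16.3% were called higher and 23.5% lower in Hke3 minus Hkh-2. The 6 include SPRY1, which lends no support to the count. The difference was -0.82 for SPRY4, which was 1.60 higher in HCT116 than in Hke3 and 0.78 higher than in Hkh-2 on the log2 scale. It was -0.67 for SPRY2, at -0.50 against Hke3 and -1.17 against Hkh-2. Both calls held when any 1 array was left out. SPRED2 differed by -0.31 and ERRFI1 by -0.26, both with the larger effect against Hke3, and PHLDA1 by 0.35, with the larger effect against Hkh-2. The SPRED2 call was lost with the mean of its probe sets (-0.18, adjusted p = 0.0686), and the ERRFI1 and PHLDA1 calls without Hkh-2 replicate 2 (0.0534 and 0.0518) or 3 (0.0573 and 0.0513). For SPRY1 the fitted value was -0.37, but vehicle and Hke3 were near background and the gene passed the filter only through Hkh-2. Its Hkh-2 mean lay 0.13 above 6, and no minimum size of the difference is given. The SPRY1 call was lost with values under 6 counted as 6 (-0.14, adjusted p = 0.149), without Hke3 replicate 2 (0.0534) and without Hkh-2 replicate 3 (0.0537).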

How the results depend on the processing

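No fold change of the 7 genes that was called changed sign under any alternative run. Of the alternative values of the 7 fold changes over the 4 comparisons, 667 kept their side of the threshold, 20 were no longer called and 5 became called. Some of the 667 that were never called changed sign. SPRED1 in HCT116 minus Hkh-2 moved from -0.07 to 0.20 with the mean of probe sets, and several fold changes between doxycycline and vehicle crossed 0. SPRED1 in HCT116 minus Hke3 was the least stable. With the mean of all probe sets it was -0.090 (adjusted p = 0.354), with no filter -0.24 (0.0624) and with the compared groups alone -0.24 (0.124), and in each the count of genes lower was 1 in place of 2. Leaving out 1 array gave -0.30 to -0.15 and a count of 1 to 2, and the call was lost without vehicle replicate 2 (adjusted p = 0.17), Hke3 replicate 1 (0.121) or 2 (0.126), doxycycline replicate 1 (0.0553) or 2 (0.0547), or Hkh-2 replicate 1 (0.0518), 2 (0.0516) or 3 (0.0553). The probe sets lower in that comparison numbered 1 in place of 2 with no filter and 1 to 2 without 1 array. With the replicate number as a block the same count was 1, and no other count of calls moved by more than 1.5 times. Over all 12 arrays, 6 correlated best with an array of their own number.

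In HCT116 minus Hkh-2, SPRY1 became called, and the count of genes lower was 2 in place of 1, with the mean of probe sets (-0.63, adjusted p = 2e-05), with doxycycline arrays (-0.36, 0.0139) and with vehicle and doxycycline pooled (-0.29, 0.0191). SPRED2 lay between 0.21 and 0.30 without 1 array. In Hke3 minus Hkh-2, the mean of probe sets gave SPRED1 at 0.29 (called), SPRED2 at -0.18 (not called), 2 genes higher in place of 1 and 5 other ERK output genes lower in place of 3. Without both arrays that stood apart, SPRED1 was at 0.23 (called) and 2 genes were higher. With values under 6 counted as 6, SPRY1 was at -0.14 and not called. Without 1 array, SPRY1 lay between -0.44 and -0.30, ERRFI1 between -0.31 and -0.22 and PHLDA1 between 0.28 and 0.45. The counts were 0 to 1 genes higher (0 without Hkh-2 replicate 2 or 3) and 3 to 5 lower (3 without Hkh-2 replicate 3), 4 to 8 probe sets higher and 4 to 7 lower (4 and 4 without Hkh-2 replicate 3), and 1 to 4 other ERK output genes lower (1 without Hke3 replicate 1 or Hkh-2 replicate 1). The mean of probe sets moved PHLDA1 to 1.54 against Hkh-2 and to 0.84 in Hke3 minus Hkh-2.

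Past a log2 fold change of 1.5, HCT116 minus Hke3 kept 1 gene higher and 0 lower, 1 probe set higher and 0 lower, and 0 other ERK output genes. HCT116 minus Hkh-2 kept 0 genes in either direction, 4 probe sets higher and 0 lower, and 0 other ERK output genes. Hke3 minus Hkh-2 kept 0 of each. Where a call changed, the cause was not tested. Levels under 6 limit SPRY1 in 3 groups and 212466_at of SPRED2 in Hke3.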
